A study of Mus musculus with 44 samples.

Results

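Values are given for the 10 core circadian clock genes, Arntl, Clock, Npas2, Per1, Per2, Per3, Cry1, Cry2, Nr1d1 and Nr1d2, in translating mRNA of Emx1-lineage hippocampal cells from mice with and without early-life exercise (ELE). They were chosen by name, as the genes of the central transcription loop, with their ELE differences in these libraries already known, and were found in the count table through their Ensembl identifiers. They are 10 of the 55335 genes listed, and all 10 passed the filter on low counts in every comparison.

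The clock of mammalian cells is a feedback loop of transcription. ARNTL, also called BMAL1, pairs with CLOCK or NPAS2 and binds E-boxes to drive transcription of the Per, Cry and Nr1d genes. PER and CRY proteins return to the nucleus and repress that pair, whereas NR1D1 and NR1D2 (REV-ERB alpha and beta) repress Arntl through RORE elements, so that Arntl mRNA runs opposite in phase to Nr1d and Per mRNA. In the hippocampus the same genes cycle over the day under cues from the suprachiasmatic nucleus, feeding, activity and glucocorticoids.

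All 20 libraries came from male Emx1-NuTRAP mice, offspring of Emx1-Cre females and NuTRAP males, in which Cre recombination in cells that have expressed Emx1 switches on labels on the ribosome and on the nuclear envelope. Emx1-Cre marks mostly excitatory neurons and also neural progenitors, so that the captured mRNA is not from neurons alone. ELE mice could run on a wheel between postnatal days 21 and 41, and sedentary mice had none. Ribosome-bound mRNA was captured from both hippocampi together with nuclei (simultaneous isolation, SIT; 4 ELE and 4 sedentary mice) or from the left or the right hippocampus processed for RNA alone (separate isolation; 3 ELE and 3 sedentary mice per side). The side of each separate library rests on the study's table of mice, and the order of the samples would give the opposite side for all 12. The clock time at which the mice were killed is not given in the sources used here, and a difference in time of day between groups cannot be told apart from a difference caused by ELE.

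Between 45895097 and 65767802 counts were deposited per library, and the least counted clock gene in any library, Per3, still had 394 counts, so that counting error was small beside the spread between mice. Levels are CPM, the counts divided by the library total after TMM scaling and set to a fixed total. Excitatory markers (Slc17a7, Camk2a, Neurod6, Neurod2, Emx1) summed to 6518 to 9974 CPM in every library, astrocyte markers to 1509 to 5070 CPM and oligodendrocyte markers to 2160 to 4688 CPM, whereas microglial markers summed to 2.34 to 8.10 CPM in 18 of 20. Libraries NT7.2.3 and NT7.2.4, both SIT sedentary, stood apart, with 8.64% and 9.64% mitochondrial counts against at most 0.523% in the others, and with 160 and 169 CPM of microglial and 816 and 854 CPM of interneuron markers. The study left these and SIT ELE mouse NT6.304 out of its SIT comparison, and the SIT comparison here used the remaining 3 ELE and 2 sedentary mice. By the first part of the mouse number, ELE mice TG7.4.1 and TG7.4.2 belong to a series without a sedentary mouse. Only ELE mouse NT6.303 shares the series of the sedentary mice NT6.305 and NT6.306, so that series and exercise cannot be fully told apart in SIT.

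Clock factors act through short elements in the promoters of their targets, and the promoters of these genes were searched for them. The RefSeq table of GRCm38.p6 holds a start for 9 of the 10 genes, with none for Per2. In the 250 bases before the start, both strands were searched for the E-box CACGTG, the E-prime box CACGTT, the D-box (TTATGTAA or TTACGTAA), the cyclic AMP element TGACGTCA and the RORE. An E-box stood before 2 of the 9 genes, Cry1 and Per1 (before 1 of the 2 listed starts of Per1, one inside the gene as GENCODE draws it), an E-prime box before 3, Cry1, Cry2 and Nr1d1, and a D-box before 1, Per3. The same motifs were found before 6.02%, 3.85% and 0.931% of the 32851 starts in the table. The cyclic AMP element and the RORE, present before 1.55% and 0.332% of all starts, were in none of the 9 windows. The stretches with a match are shown because they hold the elements that the activators bind (E-box and E-prime box) and, for Per3, the element of the D-box factors described further on. Motifs are in capitals, 5′ to 3′ on the strand of the gene, and the copy of an E-prime box on the opposite strand reads AACGTG.
Per1, chr11:69098773-69098798, plus strand, E-box from base -166: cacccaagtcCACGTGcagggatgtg
Cry1, chr10:85185099-85185143, minus strand, E-prime box from -79 and E-box from -60: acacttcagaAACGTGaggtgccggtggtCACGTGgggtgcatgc
Cry2, chr2:92434220-92434245, minus strand, E-prime box from -166: acatggtgggAACGTGagggggcgga
Nr1d1, chr11:98775390-98775415, minus strand, E-prime box from -28: cacagatctcAACGTGccggctgctg
Per3, chr4:151044806-151044880, minus strand, D-boxes from -205 and -158: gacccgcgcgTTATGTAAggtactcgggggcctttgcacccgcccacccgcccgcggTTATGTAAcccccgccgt
These are letter matches in short windows and not measured binding sites.

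Per kilobase of exon, Nr1d1 and Cry2 had the highest levels and Per3 the lowest. Median levels over the 20 libraries ran from 25.6 CPM per kb for Nr1d1 through Cry2 (19.9), Nr1d2 (13.0), Per1 (10.1), Npas2 (5.54), Clock (5.31), Cry1 (4.62), Arntl (4.45) and Per2 (3.23) to Per3 (2.25). The steps from Cry2 to Nr1d2 and from Per1 to Npas2 held in 20 of 20 libraries. Npas2 exceeded Clock, Clock exceeded Cry1 and Cry1 exceeded Arntl in 11 of 20 libraries each, so that these neighbours did not differ beyond the spread. Nr1d1 exceeded Cry2 in 18, Arntl exceeded Per2 in 17, Nr1d2 exceeded Per1 in 15 and Per2 exceeded Per3 in 14 libraries.

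The spread between mice of one group differed widely among the 10 genes. Around its group means Cry2 varied least, with a coefficient of variation of 8.33%, followed by Arntl with 10.95%, Per1 with 12.8% and Npas2 with 12.9%. Cry1 varied most, with 45.5%, followed by Per3 with 34.8%, Per2 with 28.2% and Nr1d2 with 26.1%. Over all 20 libraries the highest level was 5.44 times the lowest for Cry1, 4.38 times for Per3 and 1.39 times for Cry2.

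**Figure D1:**
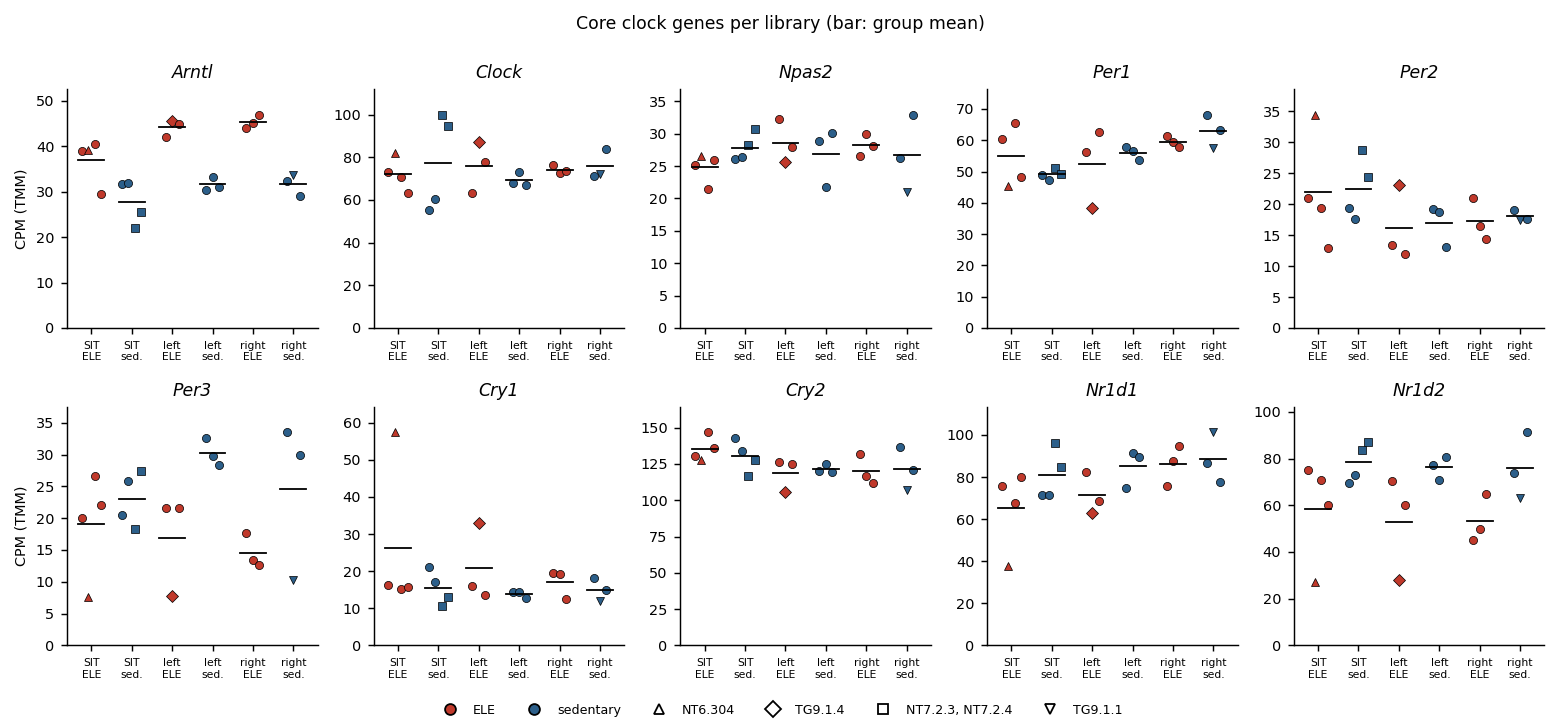
Levels of the 10 core clock genes in CPM (y axis, from 0) in each of the 20 libraries, by group (x axis), with ELE in red, sedentary in blue and a bar at the group mean. Arntl was at 42.2 to 47.0 CPM in the 6 separately isolated ELE libraries and at 29.0 to 33.7 in the 6 sedentary ones, and mice NT6.304 and TG9.1.4 sit apart for Cry1, Per3 and Nr1d2.

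The differences between ELE and sedentary mice had been seen when the genes were chosen, so they are given as a description. The word called below marks a threshold on a p-value computed for every gene, and for these genes it is a label and not independent evidence. They are log2 differences from edgeR with their standard errors (SE). A gene is termed called, after the study's threshold, where its unadjusted p was under 0.05 and its log2 difference above 0.39 in size, a change of 1.31-fold. Of all genes tested, 2.07% were called on the left, 1.97% on the right, 1.97% over both sides together and 3.65% in SIT. Of the 10 clock genes, 2 were called on the left (Arntl and Per3), 2 on the right (Arntl and Nr1d2), 3 over both sides (Arntl, Per3 and Nr1d2) and 0 in SIT. The median log2 difference of the 10 was -0.05 on the left, -0.03 on the right and -0.01 in SIT, beside 0.00 for all genes tested in each. With bulk tissue, fewer cells of a type and less RNA per cell cannot be told apart in any of these values.

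Arntl (ENSMUSG00000055116.8, chr7:113207465-113314126), the activator without which the loop stops, was higher in ELE in both hemispheres. On the left its level was 42.2, 45.5 and 44.9 CPM in ELE mice and 30.5, 33.3 and 31.2 CPM in sedentary mice. On the right it was 44.0, 45.1 and 47.0 CPM in ELE and 32.3, 33.7 and 29.0 CPM in sedentary mice. All 6 ELE libraries lay above all 6 sedentary libraries, with a gap from 33.7 to 42.2 CPM. The log2 difference was 0.48 (SE 0.08) on the left and 0.52 (SE 0.10) on the right. Over both sides it was 0.50 (SE 0.06), from a mean of 44.8 ± 1.60 to one of 31.7 ± 1.80 CPM (SD, n = 6 each).

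In SIT mice the groups overlapped for Arntl. Its level was 38.9, 39.1, 40.5 and 29.5 CPM in the 4 ELE mice and 31.6, 31.9, 22.07 and 25.6 CPM in the 4 sedentary mice, the last 2 being NT7.2.3 and NT7.2.4. Mouse TG7.4.2, at 29.5 CPM, was the ELE mouse below both sedentary mice that the study kept. The log2 difference was 0.19 (SE 0.16) over the 5 mice of the comparison and 0.42 (SE 0.16) over all 8, where Arntl was called beside 7.7% of all genes, and whether it differed from that of the separate libraries was not tested. The Arntl exons share 33 bases with Gm45355 on the opposite strand, and the authors counted by strand from a directional library kit.

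The partners of ARNTL differed less than Arntl in the separate libraries. In the SIT mice compared, the log2 difference was 0.26 (SE 0.11) for Clock and 0.19 (SE 0.16) for Arntl, a gap smaller than either error and not tested. With the SIT mice that the study left out included, Arntl differed more than Clock. Clock (ENSMUSG00000029238.11, chr5:76209868-76304792) overlapped between the groups on both sides, at 63.0, 87.0 and 77.7 CPM in left ELE and 68.0, 72.9 and 67.2 CPM in left sedentary mice, with log2 differences of 0.13 (SE 0.12) on the left and -0.03 (SE 0.09) on the right. In the SIT mice compared, Clock was at 72.9, 70.6 and 63.1 CPM in ELE and 55.1 and 60.2 CPM in sedentary mice, a log2 difference of 0.26 (SE 0.11), but NT7.2.3 and NT7.2.4 had the highest values of all, 99.9 and 94.8 CPM. With them and NT6.304 included, the difference was -0.09 (SE 0.20). Npas2 (ENSMUSG00000026077.15, chr1:39193731-39363236), which can stand in for Clock in the forebrain, overlapped on both sides, with log2 differences of 0.09 (SE 0.14) on the left and 0.08 (SE 0.16) on the right and -0.11 (SE 0.14) in SIT.

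Among the repressors, Per3 (ENSMUSG00000028957.12, chr4:151003652-151044665) had the largest difference in the separate libraries, and it was uneven between mice. On the left Per3 was at 21.6, 7.73 and 21.6 CPM in ELE and 32.6, 29.8 and 28.4 CPM in sedentary mice, with no overlap. On the right it was at 17.7, 13.4 and 12.6 CPM in ELE and 33.5, 10.3 and 29.98 CPM in sedentary mice, where the sedentary mouse TG9.1.1 lay below all 3 ELE mice. The log2 difference was -0.84 (SE 0.33) on the left, -0.75 (SE 0.35) on the right and -0.80 (SE 0.27) over both. The left difference was -0.78 to -0.88 and not called without any one of the 3 left sedentary libraries, and it was -0.49 and called without TG9.1.4. The right difference was -0.46 without TG7.3.3, and -1.13 and called without TG9.1.1. In SIT it was -0.02 (SE 0.17) over the 5 mice compared and -0.26 (SE 0.32) over all 8, and the lowest of the 8 SIT values, 7.65 CPM, was that of ELE mouse NT6.304.

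Per1 (ENSMUSG00000020893.17, chr11:69095217-69109960) and Per2 (ENSMUSG00000055866.9, chr1:91415982-91459324), the period genes that respond most readily to acute stimuli, overlapped between groups on both sides. Per1 was at 53.7 to 68.2 CPM in the 6 sedentary and at 56.1 to 62.8 CPM in 5 of the 6 separate ELE libraries, and at 38.3 CPM in TG9.1.4. Its log2 difference was -0.10 (SE 0.16) on the left, -0.08 (SE 0.09) on the right and 0.27 (SE 0.14) in SIT. Per2 was at 11.9 to 23.2 CPM in ELE and 13.0 to 19.2 CPM in sedentary separate libraries, with log2 differences of -0.08 (SE 0.26) on the left, -0.06 (SE 0.15) on the right and -0.05 (SE 0.21) in SIT.

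The cryptochromes differed from each other. Cry2 (ENSMUSG00000068742.11, chr2:92403646-92434043) was the most even gene of the loop, at 106 to 132 CPM in separate ELE and 107 to 137 CPM in separate sedentary libraries, with log2 differences of -0.03 (SE 0.09), -0.01 (SE 0.11) and -0.01 (SE 0.10) on the left, on the right and in SIT. Cry1 (ENSMUSG00000020038.10, chr10:85131700-85185064) was at 16.1, 33.0 and 13.7 CPM in left ELE and 14.5, 14.4 and 12.8 CPM in left sedentary mice, where 1 library, TG9.1.4, held the high value. On the right it was at 19.6, 19.1 and 12.4 CPM in ELE and 18.2, 11.8 and 14.97 CPM in sedentary mice. The log2 difference was 0.59 (SE 0.30) on the left, 0.19 (SE 0.21) on the right and -0.28 (SE 0.16) in SIT, and NT6.304, left out there, had 57.4 CPM. Over all 8 SIT mice the Cry1 difference turned to 0.77 (SE 0.44), and without TG9.1.4 that on the left was 0.09. Of the Cry2 exons, 295 bases overlap D930015M05Rik on the opposite strand.

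Nr1d2 (ENSMUSG00000021775.11, chr14:18204054-18239127), a repressor of Arntl, was called lower on the right and over both sides, and Nr1d1 (ENSMUSG00000020889.11, chr11:98767932-98775333), its close relative, was called in no comparison. On the left Nr1d2 was at 70.3, 28.2 and 60.04 CPM in ELE and 77.4, 70.7 and 80.6 CPM in sedentary mice, so that the groups were apart only by the step from 70.3 to 70.7 CPM. On the right it was at 44.9, 49.7 and 65.01 CPM in ELE and 73.9, 63.0 and 91.3 CPM in sedentary mice, which overlap. The log2 difference was -0.53 (SE 0.28) on the left, -0.51 (SE 0.16) on the right, -0.52 (SE 0.17) over both, -0.05 (SE 0.12) in the SIT mice compared and -0.42 (SE 0.26) over all 8. Without TG9.2.3 the right difference was -0.36 and not called, and without TG9.1.4 the difference was -0.23 on the left and -0.39 over both sides, the latter just short of the fold threshold and not called. Nr1d1 was at 82.4, 62.8 and 68.6 CPM in left ELE and 75.0, 91.6 and 89.5 CPM in left sedentary mice, and its log2 difference was -0.26 (SE 0.12) on the left, -0.04 (SE 0.12) on the right, 0.06 (SE 0.11) in the SIT mice compared and -0.30 (SE 0.21) over all 8. Of the Nr1d1 exons, 263 bases overlap Thra on the opposite strand.

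**Figure D2:**
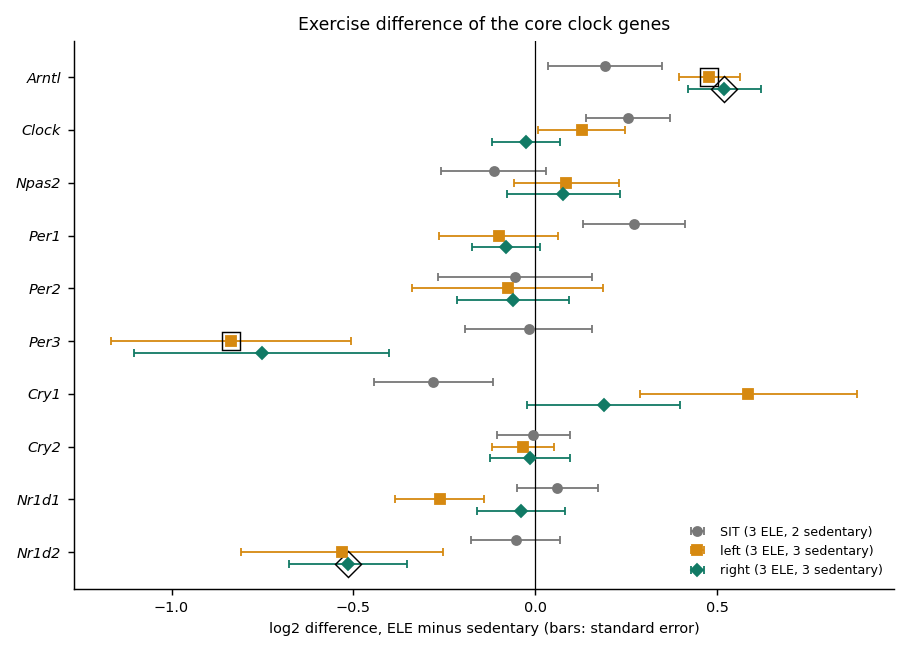
Log2 difference between ELE and sedentary libraries (x axis, with standard errors) of each clock gene (y axis) in SIT, left and right, with open outlines around the differences called. Arntl lay at 0.48 and 0.52 on the left and right, Per3 at -0.84 and -0.75, Nr1d2 at -0.53 and -0.51, and SIT values at most 0.28 in size.

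Among the 14225 genes averaging 1 CPM or more over the 20 libraries, groups did not overlap for 10.9% on the left, 7.23% on the right, 0.323% over both sides together, 22.6% in the SIT mice compared and 4.79% over all 8 SIT mice. Among the 10 clock genes, the counts were 3 on the left (Arntl, Per3 and Nr1d2), 1 on the right and over both sides (Arntl), 3 in the SIT mice compared (Clock, Npas2 and Cry1) and 0 over all 8.

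The mouse numbers of the separate libraries fall into 3 series, TG7.3, TG9.1 and TG9.2, each with 1 mouse per group, so that ELE and sedentary mice can be set against each other within a series and side. These pairs are different mice that share only a series, and deviations of same-series mice correlated at between -0.12 and 0.29. Arntl was higher in the ELE mouse in 6 of 6 such pairs, by 0.41 to 0.69 on the log2 scale. Any pairing would give this count, since its groups did not overlap on either side. Nr1d2 was lower in 6 of 6 pairs, by between 0.14 and 1.31, and Per3 was lower in 5 of 6. Their left pairs were likewise fixed, since the groups did not overlap there for Nr1d2 and Per3. The share of all genes with such counts was not computed. Cry1 was higher in 5 of 6 pairs, and Cry2 was higher in 3 and lower in 3.

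No clock gene was called for a different ELE effect between left and right, where 2.2% of all genes were. The interaction term, left minus right, was -0.04 (SE 0.12) for Arntl, -0.02 (SE 0.36) for Nr1d2, -0.08 (SE 0.55) for Per3 and 0.40 (SE 0.40) for Cry1. It was -0.22 (SE 0.18) for Nr1d1 and 0.15 (SE 0.15) for Clock, and between -0.02 and 0.01 for Npas2, Per1, Per2 and Cry2. Without TG9.1.4 and TG9.1.1, the mice with the lowest Per3, the term for Per3 was 0.63 (SE 0.20) and was called, a setting chosen after seeing the data.

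In the right hippocampus, markers of the choroid plexus (Ttr, Kl, Folr1, Otx2, Aqp1) were called lower in ELE for 4 of 5, and endothelial markers for 2 of 5, and in each case 1 sedentary mouse stood far above the rest. Summed choroid plexus markers were at 1138 CPM in TG9.2.3 and at 34.1 and 80.2 CPM in the other right sedentary libraries, which overlap the 17.3 to 42.1 CPM of right ELE. Summed endothelial markers were at 25.97 CPM in TG7.3.3 and at 1.59 and 3.48 CPM in the others, against 1.44 to 3.68 CPM in right ELE. On the left the choroid plexus sums were 25.4 to 981 CPM in ELE and 28.9 to 1242 CPM in sedentary libraries, with 0 of 5 called, and in SIT 2 of 5 were called lower. Single markers of other cell types were called too, Slc32a1 (interneurons) higher and Cx3cr1 (microglia) and Col1a1 (meninges) lower on the right, and Pvalb (interneurons) lower in SIT. Activity-induced genes (Fos, Fosb, Junb, Egr1, Egr2, Arc, Npas4, Nr4a1) were above 0 for 8 of 8 in each of the 3 exercise comparisons, with median log2 differences of 0.40 on the left, 0.62 on the right and 0.34 in SIT and with 1, 4 and 3 called. Beside all the marker and gene lists of this paragraph stand 2.07%, 1.97% and 3.65% of all genes called on the left, on the right and in SIT. The glucocorticoid-responsive genes (Fkbp5, Sgk1, Tsc22d3, Ddit4, Klf9, Zbtb16) had 0 of 6 called in each, with medians of -0.08, -0.0033 and 0.20. The part of these lists in the clock gene values was not tested.

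Hemisphere was a contrast that had not entered the choice of genes, and in it no clock gene passed the test. By edgeR over the 12 separate libraries, 0 of 10 were called and 0 had an unadjusted p under 0.05, where 1.14% of all genes were called, and DESeq2 also called 0. The log2 differences, left minus right, ran from -0.18 (SE 0.10) for Per1 to 0.26 (SE 0.27) for Per3. Arntl differed by -0.02 (SE 0.06), Cry2 by -0.01 (SE 0.07) and Clock by -0.05 (SE 0.08), the narrowest errors of the 10. For Per3, Cry1 and Nr1d2 the standard errors were 0.27, 0.20 and 0.17. Nr1d1 differed by -0.16 (SE 0.09), Per2 by -0.09 (SE 0.16), Cry1 by 0.09 and Npas2 by 0.01 (SE 0.11), and Nr1d2 by -0.0032.

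Between isolations, the share of clock genes that differed was no higher than that of all genes. Cry2 and Clock differed by small amounts, in opposite directions, in the 5 SIT libraries compared. Of all genes, 14.4% were called between the 5 SIT and the 12 separate libraries and 25.5% had an adjusted p under 0.05. Of the clock genes 0 were called, since none reached the fold threshold, and 2 had an adjusted p under 0.05. Cry2 was at 138 ± 6.78 CPM in SIT (SD, n = 5) and 121 ± 9.30 CPM in separate libraries (SD, n = 12), a log2 difference of 0.20 (SE 0.06, edgeR adjusted p = 0.0133). Clock was at 64.4 ± 7.33 against 73.8 ± 6.76 CPM, a log2 difference of -0.21 (SE 0.07, edgeR adjusted p = 0.0371). The other 8 genes had edgeR adjusted p from 0.112 for Arntl to 0.914 for Cry1, with log2 differences of -0.16 for Arntl and Nr1d1, -0.14 for Npas2, -0.09 for Per1, 0.04 for Cry1, 0.09 for Per2, 0.18 for Nr1d2 and 0.23 for Per3. With all 8 SIT libraries neither Cry2 nor Clock had an adjusted p under 0.05, with values of 0.0866 and 0.938, and the Clock difference was 0.02, and leaving out NT6.305 alone took both above it, to 0.0523 and 0.137. Leaving out any one of TG7.4.2, NT6.306, TG9.1.4, TG9.2.2, TG9.1.2 and TG7.3.1 also took Clock above it. With all 8 SIT libraries Arntl had one below it, with a log2 difference of -0.23 (SE 0.07, edgeR adjusted p = 0.0278). Astrocyte markers were lower in SIT for 4 of 5 called and interneuron markers higher for 4 of 6, and their part in these differences was not tested. The mice and tissue of the isolations differ too, and these cannot be told apart from the protocol.

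Between the 3 mouse-number series, with group in the model, Per3 and Nr1d2 had an unadjusted p under 0.05, which 9.58% of all genes had, and neither passed the adjustment. Per3 had a mean of 26.4 ± 7.90 CPM in TG7.3, 15.3 ± 9.93 in TG9.1 and 23.1 ± 7.91 in TG9.2 (SD, n = 4 each; edgeR adjusted p = 0.473). Nr1d2 had 66.6 ± 14.8, 52.9 ± 18.6 and 74.2 ± 14.4 CPM (edgeR adjusted p = 0.501). For Per2, Npas2, Cry2, Cry1, Per1, Clock, Arntl and Nr1d1 the edgeR adjusted p ran from 0.526 to 0.939 in that order. The lowest Per3 values were those of TG9.1.4 and TG9.1.1, and TG9.1.4 also had the lowest Nr1d2. Without these 2 mice both genes had an unadjusted p above 0.05, whereas Per2 and Cry1 were then below it.

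Within groups, several clock genes rose and fell together from mouse to mouse. After removing group means, which takes the ELE contrast out, 45 pairs were compared over 20 libraries with two-sided permutation tests, and 7 pairs had both a Pearson and a Spearman adjusted p under 0.05. By Pearson alone 12 pairs did. The shared component was plain in NT6.304 and TG9.1.4, in which Cry1 and Per2 were high and Per3, Nr1d1 and Nr1d2 low for their groups. Mouse TG9.1.1 had low Per3 with only part of that pattern, with deviations of -1.05 for Per3, -0.25 for Nr1d2, -0.31 for Cry1, -0.05 for Per2 and 0.20 for Nr1d1 on the log2 scale.

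**Figure D3:**
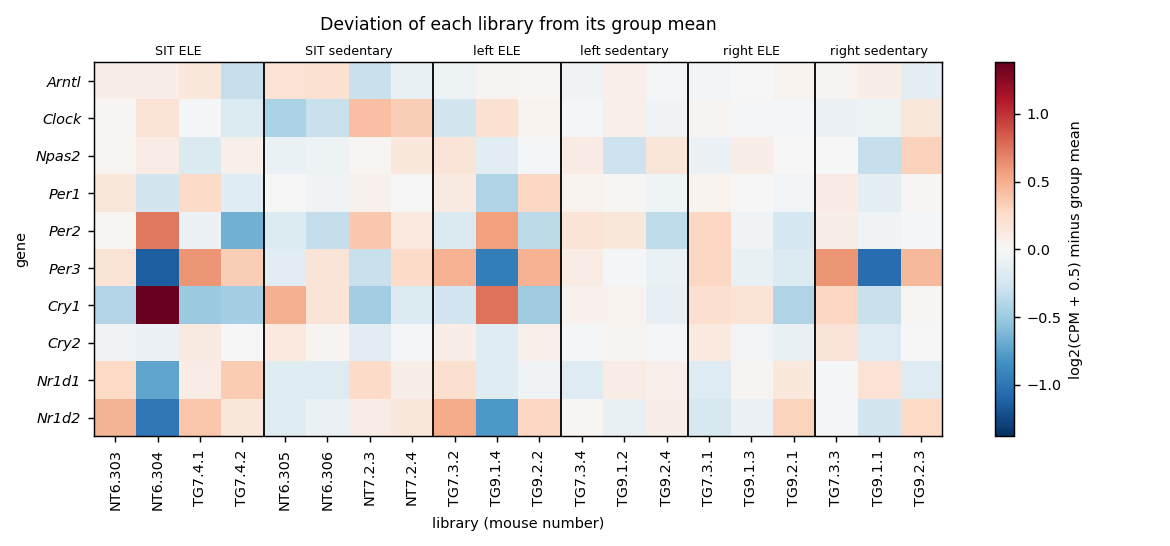
Deviation of each library (x axis) from its group mean in log2(CPM + 0.5), by gene (y axis), red above and blue below. The columns of NT6.304 and TG9.1.4 share high Per2 and Cry1 and low Per3, Nr1d1 and Nr1d2.

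Cry1 ran against both Nr1d genes. For Cry1 and Nr1d1, Pearson's r was -0.86 and Spearman's rho -0.72 (permutation adjusted p = 0.00045 and 0.0066), and r was -0.73 without the 2 libraries farthest from the median, NT6.304 and TG9.1.4. For Cry1 and Nr1d2, r was -0.86 and rho -0.75 (permutation adjusted p = 0.00045 and 0.00517), with r = -0.65 without those 2. Both pairs missed the threshold over the 12 separate libraries and without the 3 SIT mice that the study left out. The second also missed it over the 12 separate libraries with the mouse-number series centred as well. The pairs passed under 4 and 2 of 6 alternatives. The second missed it too with NT6.304 and TG9.1.4 left out before the group means were taken, a setting chosen after seeing the data. In that setting r was -0.64 for Cry1 and Nr1d1 and -0.40 for Cry1 and Nr1d2, so that the second relation rests largely on those 2 libraries.

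Per3 moved with Cry2, and Per1 and Per3 moved with Nr1d2 in a way that depended on NT6.304 and TG9.1.4, whereas Per2 passed with neither Cry2 nor Nr1d2. Per2 and Nr1d2 had r = -0.64 and rho = -0.47 (permutation adjusted p = 0.0131 and 0.145), and Per2 and Cry2 had r = -0.32. For Per3 and Cry2, r was 0.75 and rho 0.76 (permutation adjusted p = 0.00124 and 0.00517), with r = 0.72 without the farthest 2, and this was the only one of the 7 pairs that passed under all 6 alternatives tried, with r between 0.73 and 0.89. Per1 and Per3 had r = 0.76 and rho = 0.67 (permutation adjusted p = 0.00135 and 0.0156) and passed under 5 of 6, all but the one without NT6.304 and TG9.1.4, where r was 0.43. Per3 and Nr1d2 had r = 0.77 and rho = 0.60, and Per1 and Nr1d2 had r = 0.76 and rho = 0.62, and each passed under 2 of 6. The lowest r of these last 2 pairs was 0.27 and 0.23, in both cases without NT6.304 and TG9.1.4.

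Clock and Per2 had r = 0.64 and rho = 0.64 (permutation adjusted p = 0.0131 and 0.0203) and passed under 3 of 6 alternatives. Arntl passed with no other clock gene over 20 libraries. Its strongest relation was with Npas2, at r = -0.50 and rho = -0.65 (permutation adjusted p = 0.0652 and 0.0203), and r was -0.87 over the 12 separate libraries, where the pair passed, as it did in 3 of the 6 alternatives. Nr1d1 and Nr1d2 had r = 0.70 and rho = 0.55 (permutation adjusted p = 0.00566 and 0.0699), and r fell to 0.15 without NT6.304 and TG9.1.4. Over the 12 separate libraries r was 0.36, and it was 0.68 there with the mouse-number series centred as well. The groups differ in spread, and the permutations treat the 20 deviations as exchangeable.

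**Figure D4:**
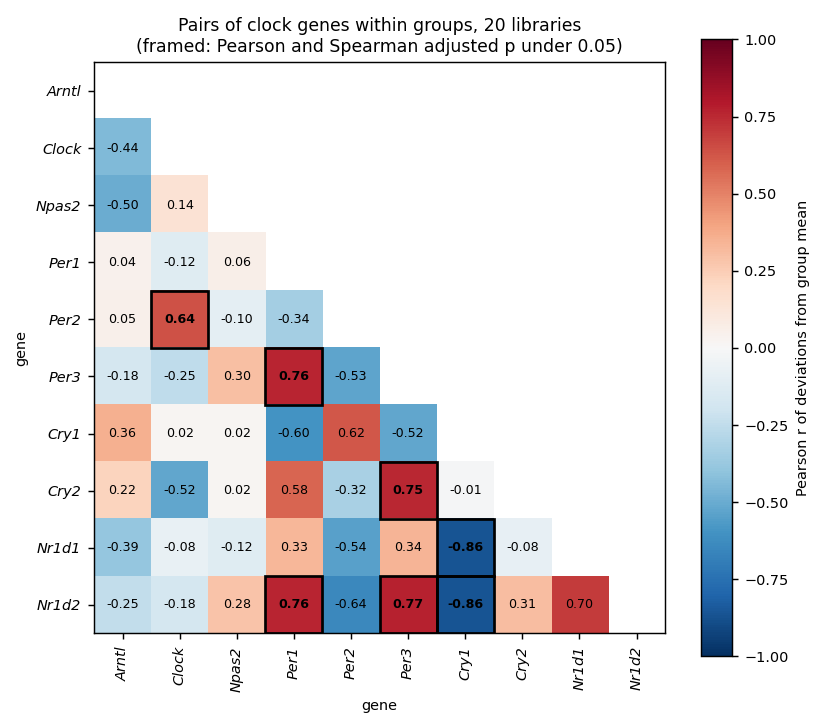
Pearson r of the deviations from group means for the 45 pairs of clock genes over 20 libraries, with the 7 pairs framed whose Pearson and Spearman adjusted p were both under 0.05. Cry1 had r = -0.86 with Nr1d1 and with Nr1d2, and Per3 had r = 0.75 with Cry2 and 0.77 with Nr1d2.

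Over the whole table, the genes whose within-group deviations were most like those of Arntl and of Nr1d1, the 2 clock genes compared in this way, were not clock genes. Among the same 14225 genes, those closest to Arntl over 20 libraries were Zfp653 (r = 0.92), Snupn (0.89), Brix1 (0.87), Mapkapk5 (0.87) and Vps36 (0.87), with r between 0.75 and 0.81 without the 2 libraries farthest from the median. Those closest to Nr1d1 were Fam217b (0.87), Grik2 (0.87), Parm1 (0.85), Gas7 (0.84) and Pnmal1 (0.84), with r between 0.65 and 0.80 without the 2 libraries farthest from its own median. Nr1d2 ranked 111 for likeness to Nr1d1, at the r of 0.70 that fell to 0.15 without NT6.304 and TG9.1.4. These are the highest of many values, share depth and scaling, and are given as a description.

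The genes that the loop drives, and its second loop, included differences of the size of the largest among the clock genes. Of 9 such genes (Dbp, Tef, Hlf, Nfil3, Bhlhe40, Bhlhe41, Ciart, Rora, Rorb), 3 were called on each side, Nfil3 higher and Dbp and Ciart lower in ELE, and 0 in SIT. Of all genes tested, 2.07% were called on the left, 1.97% on the right and 3.65% in SIT. Their median log2 difference was -0.18 on the left, -0.17 on the right and -0.11 in SIT. This list too was set with earlier results known.

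Dbp, an activator at D-boxes and a textbook output of the E-box, was at 27.9, 12.5 and 31.0 CPM in left ELE and 51.6, 55.5 and 55.2 CPM in left sedentary mice. On the right Dbp was at 22.8, 31.6 and 26.4 CPM in ELE and 49.5, 30.9 and 51.2 CPM in sedentary mice, where TG9.1.1 held the low value. In SIT it was at 27.0, 6.78, 26.2 and 27.2 CPM in the 4 ELE and 34.6, 33.4, 31.3 and 36.3 CPM in the 4 sedentary mice, so that the groups did not overlap there or on the left but did on the right. Of the genes averaging 1 CPM or more, 4.79% did not overlap over all 8 SIT mice and 10.9% on the left. The log2 difference of Dbp was -1.19 (SE 0.28) on the left, -0.70 (SE 0.19) on the right and -0.34 (SE 0.13) in the 5 SIT mice compared. The last is under the fold threshold and leaves out NT6.304, the ELE mouse at 6.78 CPM.

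Nfil3, which represses at the D-boxes that DBP activates, was at 16.03, 21.6 and 19.0 CPM in left ELE and 11.1, 12.2 and 12.4 CPM in left sedentary mice, and at 17.6, 19.9 and 15.3 against 11.4, 16.2 and 11.9 CPM on the right. The log2 difference of Nfil3 was 0.66 (SE 0.14) on the left, 0.42 (SE 0.17) on the right and 0.35 (SE 0.28) in SIT. The promoter of Per3, shown above, holds 2 D-box matches, and whether DBP or NFIL3 acts on Per3 in these cells was not tested.

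Ciart, a repressor of the CLOCK and ARNTL complex, was at 1.80 to 6.77 CPM over all libraries and below the sedentary range in ELE on each side, with log2 differences of -0.76 (SE 0.26) and -0.78 (SE 0.32). Groups did not overlap for 10.9% of genes averaging 1 CPM or more on the left and 7.23% on the right. Its promoter is shown because it held 3 E-boxes, the most of any gene of these lists.
Ciart, chr3:95882257-95882354, minus strand, E-boxes from bases -116, -58 and -44: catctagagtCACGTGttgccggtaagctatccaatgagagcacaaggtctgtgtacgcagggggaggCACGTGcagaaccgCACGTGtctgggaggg
Of the 9 genes of this list 8 have a start in the table, and in the same windows Tef and Bhlhe41 each held an E-box and were not called. Dbp and Nfil3, which were called, held none of the elements searched for. Hlf held a cyclic AMP element and a start of Rorb an E-prime box, and neither gene was called on either side or in SIT.

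**Figure D5:**
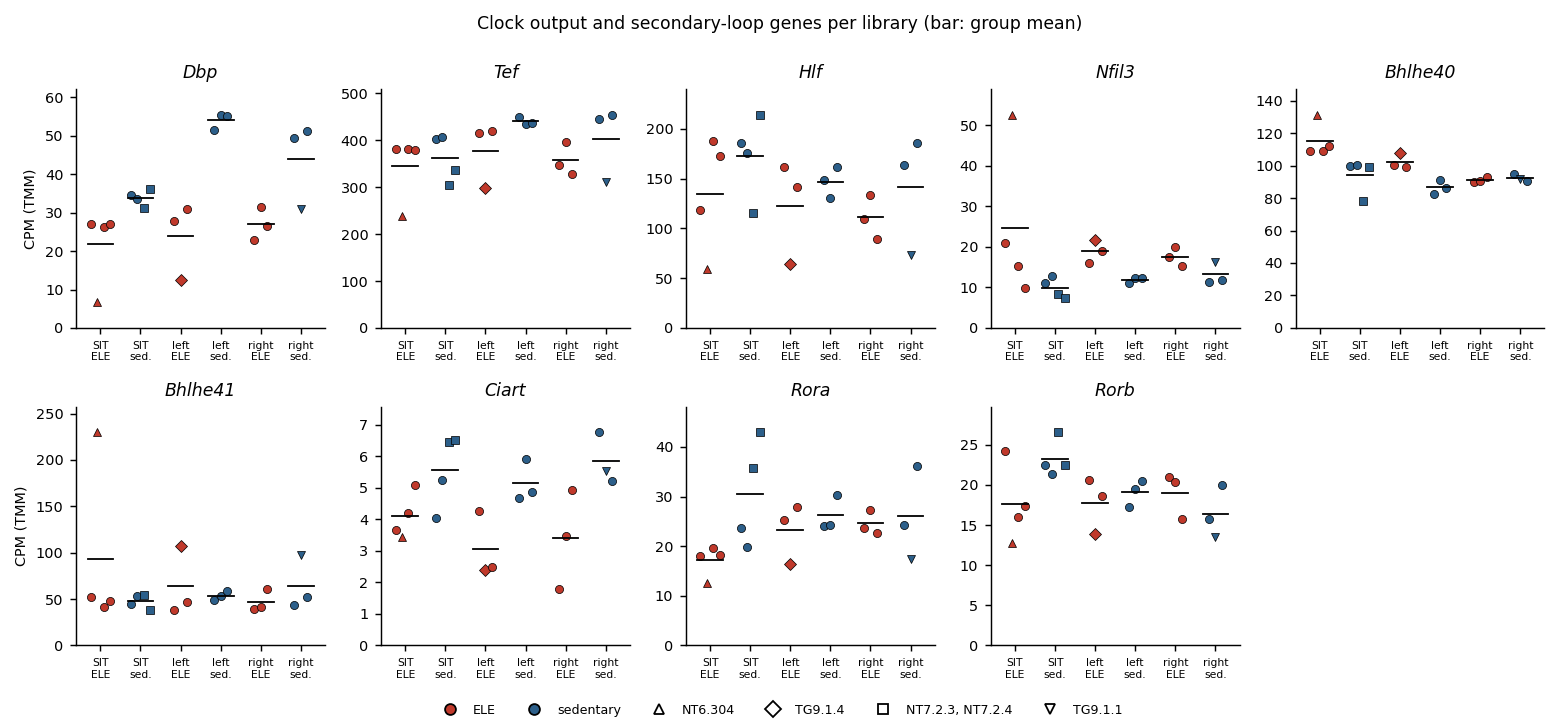
Levels in CPM (y axis, from 0) of 9 clock output and second-loop genes in each of the 20 libraries, by group (x axis), with ELE in red, sedentary in blue and a bar at the group mean. Dbp was at 12.5 to 31.6 CPM in the 6 separate ELE libraries and at 30.9 to 55.5 CPM in the 6 sedentary ones, and Nfil3 at 15.3 to 21.6 and 11.1 to 16.2 CPM.

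Other genes encode the enzymes and partners that set the stability and activity of clock proteins. Of 15 (Arntl2, Csnk1d, Csnk1e, Csnk2a1, Gsk3b, Fbxl21, Btrc, Fbxw11, Timeless, Cipc, Nono, Wdr5, Sirt1, Nampt, Usp2), 0 were called on the left, 0 on the right and 1 in SIT, with medians of 0.07, 0.02 and -0.04, beside 2.07%, 1.97% and 3.65% of all genes called. The one called was Sirt1, a deacetylase that acts on ARNTL and PER2, with a log2 difference of 0.49 (SE 0.21) in SIT, 0.16 (SE 0.15) on the left and -0.13 (SE 0.20) on the right.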

How the data were processed

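Translating ribosome affinity purification sequencing (TRAP-seq) counts of 20 Emx1-NuTRAP libraries, each from 1 mouse, were analysed. Per the labels and methods, the authors aligned reads to GRCm38 with STAR 2.7.3a, removed duplicates with Picard 1.87 and deposited whole-number counts per gene, taken over exons and by strand with GenomicAlignments. Columns carry mouse numbers, which were mapped to groups through the study's table of mice. Taking columns in sample order would give the same exercise group for 20 of 20 and the opposite side for all 12 separate libraries, and was not used. A table of wild-type hippocampus (24 columns) was not used. Symbols, coordinates and exon lengths came from GENCODE for GRCm38, which matched 55154 of 55335 identifiers. The SIT libraries compared by the study were identified from 16 listed mean counts, which 1 of 24 subsets matched within a relative 1e-04.

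Counts were scaled with TMM, filtered with filterByExpr and tested with the quasi-likelihood test of edgeR 4.0.16 (R 4.3.3), with Benjamini-Hochberg adjustment over all genes tested. Hemisphere, isolation and mouse-number series were tested with exercise or group in the model. The SE was the absolute log2 difference over the square root of F. Each library was set to CPM with TMM factors over all 20. Pairs of clock genes were compared on log2(CPM + 0.5) after subtracting group means, with 100000 permutations. All 10 clock genes are named in every comparison except that over both sides together, where those called are named. The called genes of the other clock lists and the 5 genes most like Arntl and Nr1d1 are named too. Members and lists were chosen with earlier results of these data known. Alternatives were DESeq2 1.42.0, median-of-ratios scaling, no filter, all 8 SIT libraries, each library left out and the series as a block. Scripts were tested on simulated data. Each edgeR p-value sets a difference against the spread between single mice, part of which is estimated from other genes. The permutation p-values concern the pairing of deviations of one gene with those of another. The study housed mice in pairs, and any cage mates among them were treated as independent. For 2 genes of the clock lists, values are not reported here, and the lists were summarised without them.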

Additional observations from a re-analysis of the deposited data

Results flagged for a closer look

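In 6 of 40 sets of 4 or 6 libraries (10 genes in SIT ELE, SIT sedentary, separate ELE and separate sedentary), 1 library lay far from the others by Dixon's criterion, which chance meets in about 1 set in 20. Cry1 was at 57.4 CPM in SIT ELE mouse NT6.304, and the other 3 mice lay between 15.2 and 16.3 CPM. Arntl was at 29.5 CPM in SIT ELE mouse TG7.4.2, below the other 3 at 38.9 to 40.5 CPM. Per1 was at 38.3 CPM in separate ELE mouse TG9.1.4. Per3 was at 10.3 CPM in separate sedentary mouse TG9.1.1. Per2 was at 13.0 CPM in separate sedentary mouse TG9.2.4. Clock was at 83.9 CPM in separate sedentary mouse TG9.2.3.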

How the results depend on the processing

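Of the 10 clock genes, the number called in SIT rose from 0 to 1 over all 8 SIT libraries (Arntl, log2 difference 0.42), to 1 over all 8 with the mouse-number series as a block (Clock, 0.44) and to 1 over the 4 NT6 mice alone (Clock, 0.43), the last chosen after seeing the data. In these settings 7.7%, 8.58% and 6.65% of all genes were called. With no filter on low counts, the number rose to 4 on the left (Arntl, Per3, Cry1 and Nr1d2) and to 5 between series (Npas2, Per2, Per3, Cry1 and Nr1d2), beside 2.55% and 8.35% of all genes. Without TG9.1.4 and TG9.1.1, also chosen after seeing the data, 1 gene was called for an interaction (Per3), beside 4.1% of all genes. In each case the cause was not tested. Leaving out 1 library at a time gave 1 to 4 on the left (1.2% to 5.18% of all genes), 1 to 3 on the right (1.71% to 3.53%), 2 to 4 over both sides (1.58% to 3.17%), 1 to 4 between series (6.02% to 14.6%), and 0 in SIT, hemisphere, isolation and interaction. On the left, Arntl alone was called without any one sedentary library, and on the right without TG9.2.3.

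With the series as a replicate block, 3 clock genes were called on the left (Arntl, Per3 and Nr1d2), 2 on the right and 3 over both sides, beside 1.77%, 1.71% and 2.37% of all genes. The numbers share only a series: deviations of same-series mice correlated at 0.28, 0.029 and 0.13 on the left and 0.29, -0.093 and -0.12 on the right.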

Other observations

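Mice NT6.304 and TG9.1.4, with high Cry1 and low Per3, Nr1d2 and Dbp for their groups, also had high Bhlhe41, at 230 and 107 CPM against 38.1 to 60.5 CPM in the other ELE libraries. Their summed activity-induced genes were 3766 and 557 CPM, the first far above the 277 to 767 CPM of the other libraries and the second within that range. TG9.1.1, the sedentary mouse with low Per3, had 97.0 CPM of Bhlhe41 and 283 CPM of activity-induced genes. Summed astrocyte markers were 5016 CPM in TG9.1.4 and 5070 CPM in TG9.1.1, beside 4479 CPM in TG9.2.1 and 2241 to 3118 CPM in the other separate libraries. A sum follows its most abundant marker and does not show that each astrocyte marker was high. The part of any of these values in the clock gene levels was not tested.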
